A study of Mus musculus with 12 samples.

Results

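The comparison described here is that of effective wheel-running responders with sedentary stressed mice in the ventral hippocampus. Its members are the 3 libraries titled as an effective response to voluntary wheel running (SES mice 9, 10 and 12) and the 3 libraries of stress-susceptible mice that had restraint without running (SS mice 18, 19 and 21), 6 of the 12 libraries of the series. All were wild-type male C57BL/6J mice, 8 weeks old when naive. Both groups were held immobile in tubes for 2 hours a day over 14 days and were classed as stress-susceptible. SES mice then had a running wheel in the home cage, for 14 days by the sample titles and 4 weeks by the protocol text. They were set apart from ineffective responders (SER, 3 mice with the same stress and wheel access) because despair-like, anhedonic, open-space avoidance and compulsive behaviours improved. The unstressed controls (C, 3 mice) had neither treatment. SES mice thus differ from SS mice both in having run and in having been selected for a behavioural response, and these cannot be told apart in this comparison. The time from restraint to sampling is not given here for either group, and a difference in it could not be told apart either. Mouse numbers are those of the labels, and nothing in the labels gives housing or dissection batches.

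The ventral hippocampus is the part of the hippocampus that connects with the amygdala, hypothalamus and prefrontal cortex and takes part in anxiety and mood. Restraint raises glucocorticoids, which act through the glucocorticoid and mineralocorticoid receptors and induce a set of target genes. Running is known to raise neuronal activity, growth factors such as brain-derived neurotrophic factor and metabolic demand in this structure. The question the series' design text raises is which transcripts go with the benefit of running in stressed mice.

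Totals were 13378597 to 15707516 counts in SES and 10201269 to 12277527 in SS, so 3 counts, the limit that a count of 0 allows, correspond to at most 0.303 CPM here. CPM stands for a library's counts scaled to a common total, and intervals of this kind cover counting error only. Markers of the labelled tissue were present, with CA1 and subiculum markers summing to 1116 to 1490.1 CPM in SES and 913 to 1355 CPM in SS. Ventral hippocampus markers summed to 712, 399 and 589 CPM in SES mice 9, 10 and 12 and to 427, 761 and 786 CPM in SS mice 18, 19 and 21, so SES mouse 10 and SS mouse 18 were the lowest. Their median log2 fold change (SES minus SS) over 12 tested members was −0.205, with −0.457 without SS mouse 18 and 0.533 against it alone, 0 members were above every SS mouse and 1 (Calb2) was below, and none was called. SS mouse 18 stood apart from SS mice 19 and 21. Across genes, log2 CPM correlated at 0.991 between SS mice 19 and 21, at 0.955 and 0.951 between SS mouse 18 and these, and at 0.985 to 0.987 among SES mice (genes are not independent replicates, and no test is attached). SES mice correlated at 0.977 to 0.98 with SS mouse 18 and at 0.969 to 0.978 with SS mice 19 and 21. Choroid plexus and ependymal markers summed to 1364 to 6242.5 CPM in SES, 6808 CPM in SS mouse 18 and as little as 106 CPM in the other SS mice. By these markers SS mouse 18 was the highest and SS mice 19 and 21 the lowest of the 12 libraries. Nuclear-retained RNAs summed to 1485 CPM in SS mouse 18 and to 10637 and 12294 CPM in SS mice 19 and 21. They summed to 3101 to 4208 CPM in SES, 1570 to 1969 CPM in C and 2308 to 3106 CPM in SER mice. For these RNAs SS mice 19 and 21 were thus the ones far from the other groups. Because of this split, the lists and the genes that lead them are also given without SS mouse 18. These values do not show which SS mice are typical of their group. The part that tissue composition or RNA quality had in that split was not tested.

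No gene passed in the planned test. Of 14541 genes tested with edgeR's quasi-likelihood test, 0 (0%) had an adjusted p under 0.05 in SES against SS, while 1310 (9.01%) had an unadjusted p under 0.05, 572 higher (3.93%) and 738 lower (5.08%) in SES. The smallest adjusted p was 0.177. DESeq2's Wald test called 17 of the 11434 genes to which it gave an adjusted p (0.149%), 14 higher and 3 lower. Without SS mouse 18 edgeR called 1283 of 14762 genes (8.69%), 481 higher (3.26%) and 802 lower (5.43%), and these included 16 of the 17 that DESeq2 called with all mice. The 3 SES values all lay above the 3 SS values in 920 genes (6.33%) and all below in 861 (5.92%). These last shares are the background against which the gene lists below are read. Directions are given as values, and a gene is said to have risen or fallen only where it was called in the fit without SS mouse 18. That mouse was left out after its values were seen. The fit keeps SS mice 19 and 21, which correlated at 0.991, so much of the spread among SS mice is removed. Its adjusted p-values hold only given that choice, and its calls do not extend to SS mouse 18.

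The gene with the smallest p was Pou3f1 (mm10 chromosome 4, 124657646 to 124660655), which encodes a POU-domain transcription factor found in CA1 pyramidal neurons. Its level was 102, 108 and 93.6 CPM in SES mice 9, 10 and 12, against 58.95, 66.4 and 50.7 CPM in SS mice 18, 19 and 21. All SES mice were above all SS mice, and the C mice (75.8, 70.3 and 89.5 CPM) lay between. The log2 fold change was 0.79 ± 0.12 (SE; adjusted p = 0.177), and without SS mouse 18 it rose by 0.79 ± 0.13 (adjusted p = 0.00289). In bulk tissue a larger number of cells of one type and more RNA per cell cannot be told apart, here and for every marker gene below.

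Fam107a (chromosome 14, 8296270 to 8317607), an actin-binding gene known to be induced by stress and glucocorticoids, had the smallest p after Pou3f1 among the higher genes named here. Its level was 1109, 1029 and 1256 CPM in SES and 866, 636 and 700.4 CPM in SS mice, with C mice at 586, 671 and 527 CPM. The groups did not overlap, and the SES mice were higher than both the sedentary stressed and the unstressed mice. On the log2 scale the difference was 0.62 ± 0.12 (edgeR adjusted p = 0.524), and without SS mouse 18 the gene rose by 0.76 ± 0.11 (adjusted p = 0.00149). 

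Among the other higher genes with the smallest p were several of membranes and signalling. Kcnab1, a β subunit of voltage-gated potassium channels, stood at 165, 149.6 and 173 CPM in SES and 114, 129 and 124 CPM in SS mice (0.41 ± 0.09, adjusted p = 0.524). Zdhhc2, a palmitoyltransferase that modifies the synaptic scaffold PSD-95, stood at 54.1, 49.00 and 46.7 CPM against 38.02, 31.6 and 26.1 CPM (0.65 ± 0.14). Git1, a scaffold of dendritic spines, stood at 491, 500.2 and 442 CPM against 381, 338 and 328 CPM (0.45 ± 0.10). In none of these 3 genes did the groups overlap, and all 3 rose without SS mouse 18, by 0.36, 0.79 and 0.52 (adjusted p = 0.0324, 0.00338 and 0.0105). Bmpr2, a receptor for bone morphogenetic proteins, stood at 256, 233 and 256 CPM against 206, 186 and 198 CPM (0.34 ± 0.08). Sema3c, a secreted axon guidance factor, stood at 30.7, 26.7 and 23.3 CPM against 17.4, 17.9 and 16.6 CPM (0.64 ± 0.14). Its C level of 34.9, 33.6 and 26.5 CPM was above every SS mouse, as was that of Bmpr2 at 270.0, 255 and 250.3 CPM. The ankyrin-repeat gene Sowaha (0.42 ± 0.09), the spindle gene Mzt1 (0.37 ± 0.08), the G-protein subunit Gng10 (0.45 ± 0.11), the lysine-degrading enzyme Aass (0.92 ± 0.21), the transcription factor Tfcp2l1 (0.95 ± 0.22) and the receptor-transporting protein Rtp1 (1.20 ± 0.28) were also higher in all SES mice. Foxc2, a forkhead factor, had the largest of these differences (2.84 ± 0.66), at 1.95, 0.736 and 2.48 CPM in SES and 0.202, 0.392 and 0.0849 CPM in SS mice, values that reach below the level of 3 counts. Each of these genes had an adjusted p of 0.524 with all mice and was called higher without SS mouse 18.

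The lower genes with the smallest p were of mixed function. Tyk2, a Janus kinase of cytokine receptors, stood at 11.4, 13.3 and 10.6 CPM in SES and 15.9, 19.2 and 19.4 CPM in SS mice (−0.63 ± 0.14), with C mice at 10.01, 8.78 and 10.2 CPM. Shc2, an adaptor of receptor tyrosine kinases, stood at 31.6, 29.9 and 32.7 CPM against 39.5, 44.6 and 47.8 CPM (−0.49 ± 0.11), with C mice at 29.9, 34.97 and 35.4 CPM. In both genes the SES mice overlapped or nearly overlapped the C mice, and the SS mice were above both. The antisense gene Tomm6os (−0.96 ± 0.18) stood at 5.35, 5.62 and 4.59 CPM against 10.2, 10.4 and 9.59 CPM, a value that reads of its sense partner may share because the counting of strand is not given in the sources used here. The sirtuin Sirt5 (−0.62 ± 0.15), the clathrin adaptor subunit Ap1s3 (−1.05 ± 0.26), the centriole gene Cep164 (−0.86 ± 0.22), the kinase partner Strada (−0.56 ± 0.14), the splicing regulator Celf3 (−0.50 ± 0.13), the microRNA-processing cofactor Tarbp2 (−0.68 ± 0.18) and the angiogenesis inhibitor Vash1 (−0.39 ± 0.11) were also below every SS mouse. So were Shisa4 (−0.38 ± 0.09), Adam11 (−0.45 ± 0.12), Cpne2 (−0.60 ± 0.16), Fnbp1 (−0.39 ± 0.10) and Sema4g (−0.69 ± 0.19). All 15 had an adjusted p of 0.524 with all mice. In the fit without SS mouse 18, 14 of the 15 fell and Fnbp1 was not called (adjusted p = 0.0584). Several of them were close in SS mouse 18 to the SES mice, such as Sema4g at 14.6, 24.7 and 26.8 CPM in SS mice against 14.4, 12.05 and 14.5 CPM in SES.

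**Figure D1:**
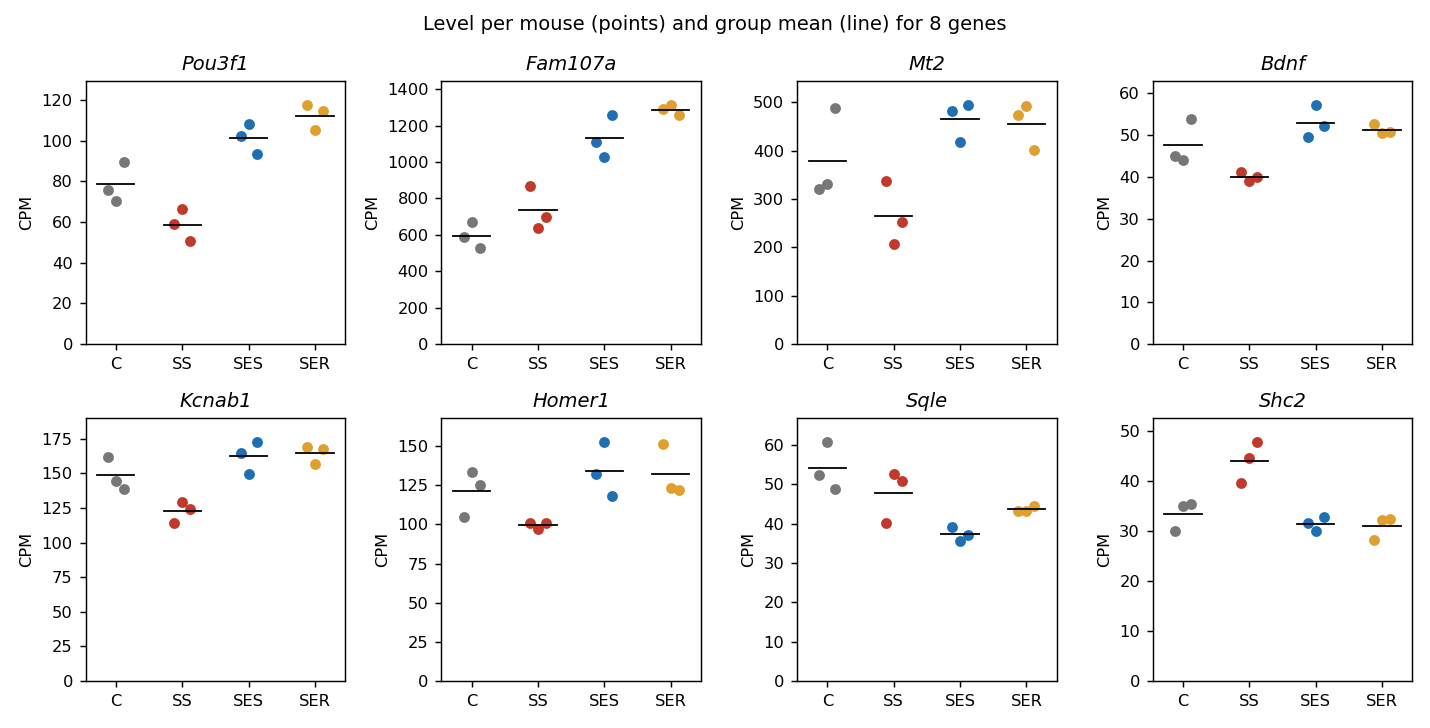
CPM (vertical axes, from 0) of 8 genes in each mouse of the 4 groups, with each mouse as a point and the group mean as a line. SES and SS points do not overlap in any of the 8 panels, with Pou3f1, Fam107a, Mt2, Bdnf, Kcnab1 and Homer1 higher and Sqle and Shc2 lower in SES.

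Gene lists gave a wider view. For each list the members whose SES and SS values did not overlap were counted and set beside the share over all genes, 6.33% higher and 5.92% lower. The median log2 fold change was set beside that of all genes, −0.013 with all mice and 0.004 without SS mouse 18. Counts of members that rose or fell without SS mouse 18 have another background, the 3.26% of all genes called higher and 5.43% called lower in that fit. Members of a list vary together across libraries, so these counts carry no test. 

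**Figure D2:**
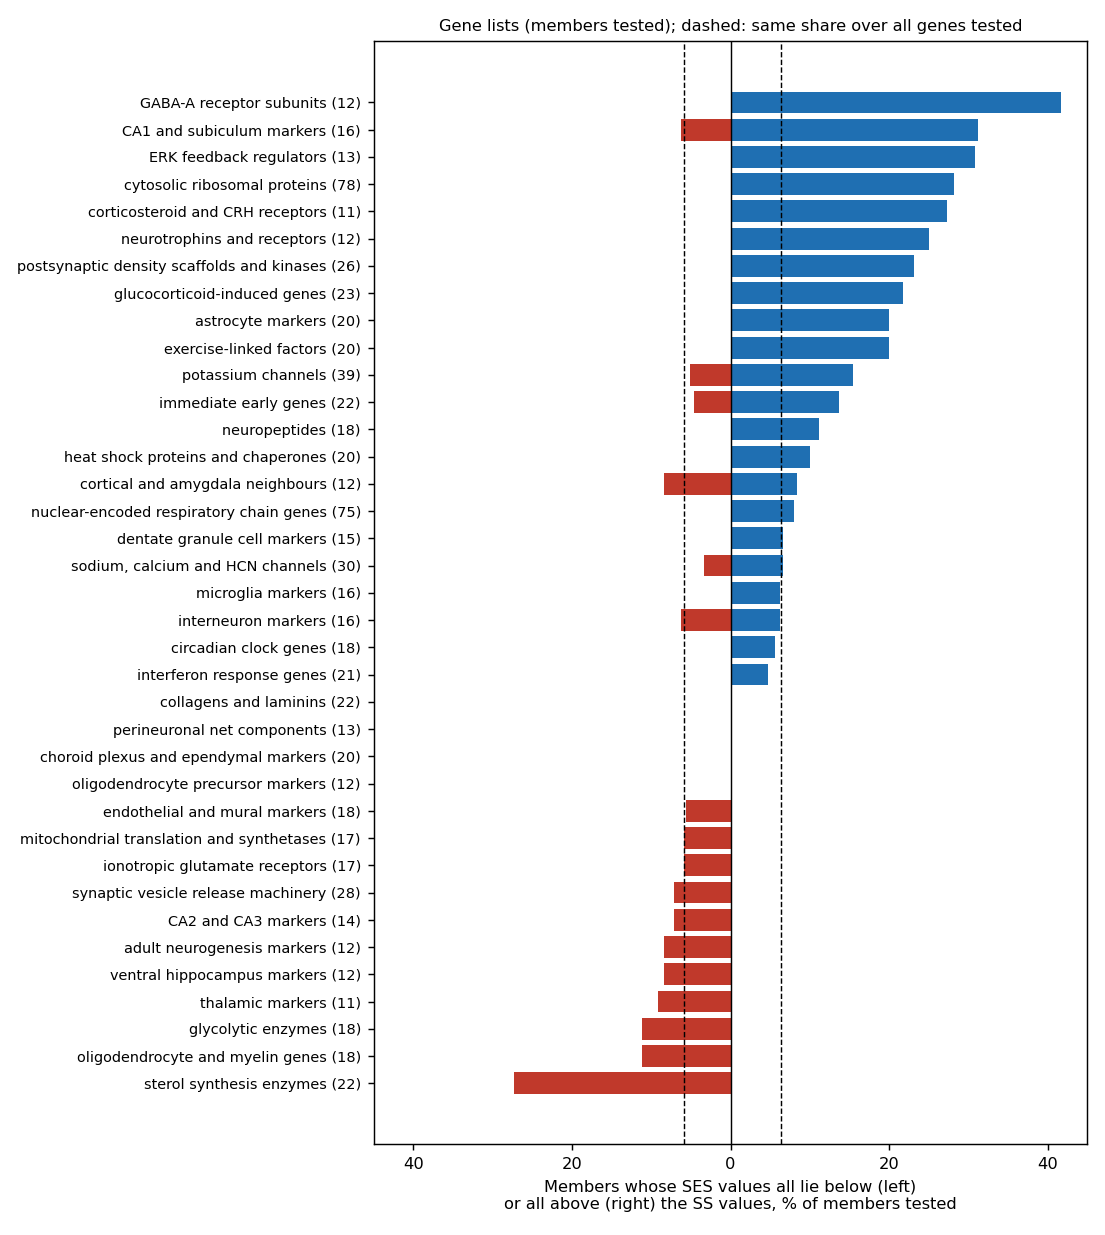
Share of tested members (horizontal axis, percent) whose 3 SES values all lay above (blue, right) or all below (red, left) the 3 SS values, for lists with at least 11 tested members (number in brackets), with dashed lines at the shares over all genes, 6.33% and 5.92%. GABA-A receptor subunits, CA1 and subiculum markers and ERK feedback regulators had the largest shares above, and sterol synthesis enzymes the largest share below.

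Genes induced by glucocorticoids were mostly higher in SES, but their level depended on which SS mouse they were set against. Of 24 members 23 were tested, 19 had a positive fold change, 5 were above every SS mouse (Fam107a, Mt1, Mt2, Sult1a1 and Xdh) and 0 were below. The median was 0.28 with all mice, 0.597 without SS mouse 18 and −0.131 against SS mouse 18 alone. Summed over the list, SES mice had 3319 to 3833 CPM, SS mouse 18 had 3238 CPM, the lowest SS mouse had 2166 CPM, and C mice had 2202 to 2695 CPM. When SS mouse 18 was left out, 8 members rose and 1 fell.

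The metallothioneins, small cysteine-rich proteins that bind zinc and copper, formed a list of 4 genes, of which 3 were tested and 2 were above every SS mouse. Mt2 (chromosome 8, 94172618 to 94173567) stood at 482, 418 and 494 CPM in SES and 338, 207 and 253 CPM in SS mice, which gave 0.81 ± 0.18 on the log2 scale (adjusted p = 0.524). Mt1 (chromosome 8, 94178883 to 94180327) stood at 697, 637 and 740.4 CPM against 588, 427 and 453 CPM (0.50 ± 0.15). Mt3 (chromosome 8, 94152607 to 94154148), the neural member, stood at 482, 468 and 455 CPM against 484, 416 and 456 CPM (0.05 ± 0.13, adjusted p = 0.917). SES and SS mice did not overlap for Mt1 and Mt2 and overlapped for Mt3, although the 3 genes lie beside each other. C mice had 321, 331 and 488 CPM of Mt2 and 523, 451 and 621 CPM of Mt1, so C mouse 12 reached the SES range for Mt2. When SS mouse 18 was left out, Mt2 rose by 1.02 ± 0.17 (adjusted p = 0.00289) and Mt1 by 0.65 ± 0.15 (adjusted p = 0.0161), while Mt3 was not called (0.10 ± 0.14, adjusted p = 0.682).

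Because SES and SS mice were apart for Mt1 and Mt2 and overlapped for Mt3, the promoters of the 3 genes are shown with the core of the metal response element in capitals. The core is the motif bound by the zinc sensor MTF-1, searched as TGCACNC or TGCGCNC on both strands. Each run of 300 bases is from RefSeq (GRCm38.p6, the assembly from which mm10 is drawn), covers 250 bases before to 50 after a start site and is written 5′ to 3′ on the gene's strand. Mt1 lies at chr8:94178839-94179138 (plus strand), a window set on a start at 94179089 that is downstream of the gene's first annotated base, Mt2 at chr8:94172368-94172667 (plus) and Mt3 at chr8:94152357-94152656 (plus).
Mt1: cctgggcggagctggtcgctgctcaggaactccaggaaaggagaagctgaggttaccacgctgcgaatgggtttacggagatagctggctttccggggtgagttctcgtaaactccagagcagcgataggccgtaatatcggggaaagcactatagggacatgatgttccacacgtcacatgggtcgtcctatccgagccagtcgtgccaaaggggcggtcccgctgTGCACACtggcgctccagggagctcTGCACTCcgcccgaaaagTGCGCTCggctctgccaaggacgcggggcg
Mt2: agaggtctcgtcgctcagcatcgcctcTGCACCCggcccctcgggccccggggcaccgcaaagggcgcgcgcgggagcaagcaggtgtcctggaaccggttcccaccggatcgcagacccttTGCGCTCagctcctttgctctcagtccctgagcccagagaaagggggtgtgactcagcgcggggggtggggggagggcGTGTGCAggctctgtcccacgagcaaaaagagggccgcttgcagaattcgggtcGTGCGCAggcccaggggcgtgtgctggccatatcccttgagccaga
Mt3: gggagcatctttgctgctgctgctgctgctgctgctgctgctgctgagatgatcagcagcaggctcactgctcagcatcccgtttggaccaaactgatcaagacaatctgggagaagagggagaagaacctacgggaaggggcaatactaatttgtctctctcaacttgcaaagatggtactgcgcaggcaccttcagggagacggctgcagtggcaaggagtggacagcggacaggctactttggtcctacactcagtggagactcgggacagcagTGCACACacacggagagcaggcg
The core occurred 3 times in the Mt1 window, 4 times in that of Mt2 and 1 time in that of Mt3. Of 32851 promoter windows of the same length, 25.7% held at least 1 core, 1.97% at least 3 and 0.517% at least 4. A match is a description of the letters and says nothing on binding in these mice.

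A window at an internal start of Fam107a is shown because the gene is a known glucocorticoid target whose groups did not overlap. The glucocorticoid response element is in capitals. That element was searched as GNACA, then 3 bases of any kind, then TGTNC, which reads alike on both strands, and 0.475% of the 32851 windows held it. The window below lies at chr14:8309730-8310029 (minus strand). It held 1 match, as did the Mt1 window. Its start site, 8309779, lies inside the gene, and the window at the gene's first annotated base, 8317607 (chr14:8317558-8317857), held 0.
Fam107a: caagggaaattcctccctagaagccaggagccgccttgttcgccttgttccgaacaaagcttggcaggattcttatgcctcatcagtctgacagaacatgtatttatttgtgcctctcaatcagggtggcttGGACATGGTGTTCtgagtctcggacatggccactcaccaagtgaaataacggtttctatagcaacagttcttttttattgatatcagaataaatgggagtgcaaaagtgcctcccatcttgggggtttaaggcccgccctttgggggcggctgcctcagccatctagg

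Other glucocorticoid targets differed in where SS mouse 18 stood. Sult1a1, a sulfotransferase, stood at 32.5, 27.1 and 37.3 CPM in SES and 19.01, 17.3 and 20.2 CPM in SS mice, above all SS mice alike (0.78 ± 0.22). Xdh, xanthine dehydrogenase, stood at 6.55, 8.17 and 10.6 CPM against 6.27, 4.39 and 5.69 CPM (0.63 ± 0.26). Fkbp5, the co-chaperone that lowers the receptor's sensitivity, stood at 115, 110.2 and 155 CPM against 143, 78.3 and 85.2 CPM (0.31 ± 0.22, adjusted p = 0.674), so that SS mouse 18 lay inside the SES range. The Krüppel-like factor Klf9 stood at 185, 208 and 203 CPM against 192, 128 and 129 CPM (0.41 ± 0.14), again with SS mouse 18 among the SES mice. Without that mouse Fkbp5 rose by 0.63 ± 0.18 (adjusted p = 0.0418) and Klf9 by 0.62 ± 0.10 (adjusted p = 0.00241). The member that fell in that fit was the clock gene Per1, at 63.9, 74.2 and 68.9 CPM in SES and 62.7, 93.8 and 99.9 CPM in SS mice (without SS mouse 18 −0.49 ± 0.13, adjusted p = 0.0327).

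Receptors and regulators of the stress axis formed a separate list. Of 11 tested members, 3 were above every SS mouse and 0 below, with a median of 0.197. The glucocorticoid receptor gene Nr3c1 stood at 106, 91.2 and 88.7 CPM in SES and 81.4, 87.99 and 80.5 CPM in SS mice (0.20 ± 0.14), and its coactivator Ncoa1 at 169.6, 172 and 191 CPM against 158, 160.4 and 150.0 CPM (0.18 ± 0.09). Crh, the corticotropin-releasing hormone, stood at 2.39, 3.75 and 2.56 CPM against 1.72, 1.41 and 1.36 CPM (0.96 ± 0.27), and leaving out SS mouse 18 gave an adjusted p of 0.0505. The mineralocorticoid receptor Nr3c2 (−0.01 ± 0.16) and the CRH receptor Crhr1 (−0.21 ± 0.26) overlapped between the groups, and the sign of neither held in every fit. Leaving out SS mouse 18, 3 members rose. They included Hsd11b1, which regenerates active glucocorticoid (41.04, 35.6 and 33.5 CPM in SES against 35.3, 28.9 and 26.1 CPM in SS mice, 0.42 ± 0.11, adjusted p = 0.0378), and the receptor chaperone Hsp90aa1 (0.34 ± 0.10, adjusted p = 0.0441).

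Immediate early genes, which neurons switch on within minutes of activity, had a median of 0.261 over 22 tested members. Of these, 3 were above every SS mouse (Egr1, Homer1 and Nr4a2) and 1 below (Csrnp1, named here after its values were seen, at 7.55, 8.77 and 7.83 CPM against 9.91, 9.33 and 9.76 CPM, −0.26 ± 0.21). Egr1, a zinc finger factor, stood at 119.7, 156 and 112 CPM in SES and 62.2, 84.3 and 99.5 CPM in SS mice (0.65 ± 0.22). Homer1, a postsynaptic scaffold with an activity-induced short form, stood at 132, 153 and 118 CPM against 101, 96.8 and 101 CPM (0.43 ± 0.12). The SS mice were within a few CPM of each other for Homer1, and 85.1% of its counts fell on 1 deposited transcript (NM_147176). Its level is summed over transcripts and does not separate the short form, and the gene is also counted in the postsynaptic density list. Nr4a2, an orphan nuclear receptor, stood at 54.5, 50.1 and 41.5 CPM against 30.1, 40.9 and 40.5 CPM (0.39 ± 0.27). Fos (13.6, 12.99 and 17.2 against 3.74, 12.8 and 17.1 CPM), Arc (69.9, 84.9 and 107 against 53.2, 80.5 and 105 CPM) and Npas4 (7.36, 11.6 and 10.1 against 2.53, 8.94 and 8.66 CPM) overlapped between the groups, and each was lowest in SS mouse 18. The list median was 0.515 against SS mouse 18 alone and 0.087 without it, where 1 member fell (Jun, −0.42 ± 0.12, adjusted p = 0.0441) and 0 rose.

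Feedback regulators of the ERK kinase cascade had a positive median with and without SS mouse 18. It was 0.214 over 13 tested members with all mice and 0.242 over the same 13 without that mouse, although it was 0.11 without SS mouse 21. Of the 13, 4 were above every SS mouse and 0 below. Spred1, a Ras pathway inhibitor, stood at 269, 241 and 229 CPM in SES and 196, 177 and 177 CPM in SS mice (0.43 ± 0.15). The phosphatases Dusp4 (0.51 ± 0.20) and Dusp6 (0.33 ± 0.17) and the inhibitor Spry2 (0.23 ± 0.10) were the others. None of the list was called in either fit.

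Bdnf (chromosome 2, 109674700 to 109727043), the neurotrophin most studied in running, stood at 49.5, 57.2 and 52.3 CPM in SES and 41.3, 38.9 and 39.9 CPM in SS mice. All SES mice were above all SS mice (0.40 ± 0.10, adjusted p = 0.524), while C mice had 45.1, 43.96 and 53.8 CPM. It rose by 0.43 ± 0.11 without SS mouse 18 (adjusted p = 0.03). The transcript with the largest share of its counts (NM_001048142, 49.7%) had 330, 396 and 383 counts in SES and 227, 243 and 241 in SS mice, a log2 fold change of 0.29 ± 0.17. NM_007540 (12.3%) had 121, 167 and 85 counts against 56, 79 and 31 (0.80 ± 0.51), and NM_001048141 (24.3%) had −0.05 ± 0.26, so no single transcript was called. Over 12 tested neurotrophins and receptors, 3 were above every SS mouse and 0 below, with a median of 0.06. The adaptor Shc3 (0.41 ± 0.17) and the sorting receptor Sorcs3 (0.36 ± 0.17) were the other members apart, and the Bdnf receptor Ntrk2 overlapped (766, 569 and 731 against 581, 635 and 570.3 CPM, 0.21 ± 0.11).

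Exercise-linked factors had a median of 0.069 over 20 tested members, with 4 above every SS mouse and 0 below. Igf1, insulin-like growth factor 1, stood at 11.6, 11.6 and 11.7 CPM in SES and 8.70, 9.02 and 10.3 CPM in SS mice (0.32 ± 0.13). Sesn1, a stress-inducible regulator of mTOR signalling, stood at 81.3, 73.3 and 79.3 CPM against 68.2, 66.7 and 61.9 CPM (0.25 ± 0.10). The mitochondrial transcription factor Tfam (0.22 ± 0.10) and the chaperone clusterin, Clu (0.13 ± 0.08), completed the 4. Fndc5, the precursor of irisin, overlapped (77.98, 96.6 and 76.5 against 106, 66.8 and 68.6 CPM), with SS mouse 18 highest of the 6. Ucp2, a mitochondrial carrier, was likewise highest in SS mouse 18 (39.1, 58.4 and 45.9 against 61.8, 20.9 and 19.9 CPM) and rose by 1.23 ± 0.24 without it (adjusted p = 0.00759). None of the 4 genes above every SS mouse was called in either fit.

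Markers of CA1 and subiculum pyramidal neurons included Pou3f1 and had a median of 0.336 over 16 tested members. Of these, 5 were above every SS mouse and 1 below. Spink8, a protease inhibitor of CA1 neurons, stood at 29.1, 28.9 and 32.5 CPM in SES and 22.8, 15.9 and 10.95 CPM in SS mice (0.87 ± 0.29). Man1a, a mannosidase of glycoprotein processing, stood at 50.6, 39.3 and 42.2 CPM against 29.3, 31.8 and 25.6 CPM (0.61 ± 0.21). Wfs1 (0.66 ± 0.32), an endoplasmic reticulum protein named here after its values were seen, was also higher. Crym, a thyroid hormone-binding protein, was the member below every SS mouse (210.2, 183 and 219 against 263, 267 and 245 CPM, −0.34 ± 0.14). Against SS mouse 18 alone the median was 0.652 and without it 0.179, where Pou3f1 and Spink8 (1.16 ± 0.29, adjusted p = 0.0256) rose. Markers of the neighbouring fields had medians of −0.083 for CA2 and CA3 markers (14 tested, 0 above and 1 below) and −0.086 for dentate granule cells (15 tested, 1 above and 0 below). C1ql2, a granule cell synapse organizer, stood at 59.3, 63.3 and 75.1 CPM in SES and 68.4, 91.7 and 109 CPM in SS mice and fell by 0.61 ± 0.16 without SS mouse 18 (adjusted p = 0.0317). The newborn neuron marker Dcx, at 18.2, 20.1 and 15.3 CPM against 11.7, 28.5 and 27.1 CPM, fell by 0.64 ± 0.14 in that fit (adjusted p = 0.0159). Of 12 tested adult neurogenesis markers it was the 1 that fell there, beside 5.43% of all genes, and 0 rose. The median of that list was −0.058 with all mice and −0.139 without SS mouse 18.

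GABA-A receptors are the chloride channels through which GABA inhibits neurons, most of them built of α, β and γ subunits. Of 12 tested subunits, 5 were above every SS mouse, 0 were below and the median was 0.163. Gabrb2 (chromosome 11, 42419515 to 42632591), a β subunit gene, stood at 324, 292 and 288 CPM in SES and 244, 238 and 256 CPM in SS mice, with C mice at 340.2, 335 and 316 CPM (0.29 ± 0.08). Every SS mouse was below every SES and C mouse, and the ranges of SES and C overlapped. Gabrb1, another β subunit gene, stood at 34.2, 38.1 and 39.5 CPM against 26.5, 31.3 and 31.7 CPM (0.32 ± 0.11). None of the list was called with or without SS mouse 18 (Gabrb2 0.29 ± 0.09, adjusted p = 0.0675, and Gabrb1 0.24 ± 0.11, adjusted p = 0.169, without it). Interneuron markers had a median of 0.148, with 1 of 16 above every SS mouse and 1 below (Calb2, calretinin, at 40.3, 18.7 and 46.5 CPM in SES and 53.8, 64.2 and 75.6 CPM in SS mice).

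Postsynaptic density scaffolds and kinases had 6 of 26 members above every SS mouse and 0 below, with a median of 0.141. Dlgap1, a scaffold that links PSD-95 to Shank proteins, stood at 906, 1066 and 1020 CPM in SES and 840.4, 797 and 846 CPM in SS mice (0.27 ± 0.09). Homer2 stood at 173, 134 and 147 CPM against 131, 102 and 94.4 CPM (0.47 ± 0.18), and it was the 1 member that rose without SS mouse 18 (0.62 ± 0.18, adjusted p = 0.0482). Camk2a, the kinase of long-term potentiation, stood at 5296, 5006 and 5486 CPM against 5220, 4509 and 4171 CPM, with SS mouse 18 inside the SES range. By contrast ionotropic glutamate receptors had a median of −0.162 over 17 members, 0 above every SS mouse and 1 below, the NMDA subunit Grin2c (47.3, 48.9 and 43.1 against 50.6, 58.3 and 61.04 CPM, −0.29 ± 0.11). In 8 of the 17 (47.1%, against 10.1% of all genes) SS mouse 18 lay below all SES mice and SS mice 19 and 21 above them. The kainate receptor subunit Grik2 was one of these, at 49.6, 48.9 and 43.1 CPM in SES and 43.8, 77.5 and 81.5 CPM in SS mice, and it fell by 0.75 ± 0.11 without SS mouse 18 (adjusted p = 0.00126).

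No ion channel gene of the lists was called with all mice. Of 39 potassium channel genes 6 were above every SS mouse and 2 below, with a median of −0.016. Without SS mouse 18, 3 of them rose and 2 fell, beside 3.26% and 5.43% of all genes in that fit, so the count that fell was near the background. Besides Kcnab1, the leak channel gene Kcnk2 stood at 73.7, 77.7 and 67.8 CPM in SES and 57.8, 57.8 and 61.7 CPM in SS mice (0.31 ± 0.09). The fast-spiking channel gene Kcnc1 (121, 121 and 128 against 135, 146 and 155 CPM, −0.23 ± 0.10) was among those below. Kcnh5 (0.97 ± 0.38) was among those above, at 2.64, 3.21 and 3.99 CPM against 2.02, 1.73 and 1.27 CPM. Of 30 sodium, calcium and HCN channel genes 2 were above every SS mouse and 1 below, Cacna1c, the L-type calcium channel gene (82.6, 82.2 and 79.1 against 89.8, 124 and 125 CPM, −0.48 ± 0.17). Cacna1c fell by 0.61 ± 0.15 without SS mouse 18 (adjusted p = 0.0269). It was 1 of 5 of the 30 members to fall, while 0 rose, beside 5.43% and 3.26% of all genes. In 8 of the 30 (26.7%, against 10.1% of all genes) SS mouse 18 lay below all SES mice and the other SS mice above. The median of that list was −0.09 with all mice and 0.159 against SS mouse 18 alone. With all mice, the count of that list above was near the background of 6.33%. Of 10 tested serotonin receptor genes 3 were above every SS mouse and 0 below, among them the inhibitory receptor Htr1a (43.7, 35.3 and 43.9 against 32.5, 34.3 and 34.8 CPM, 0.27 ± 0.15), yet the list median was −0.007.

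Genes of sterol synthesis formed the list with the largest share of members below the SS mice. The list holds enzymes of the mevalonate pathway to cholesterol, with regulators such as Insig1 and Srebf2, most of them targets of SREBP factors. Of 22 tested members 6 were below every SS mouse, 0 above, and the median was −0.17. Sqle (chromosome 15, 59315092 to 59331193), squalene epoxidase, stood at 39.1, 35.7 and 37.2 CPM in SES and 40.2, 52.6 and 50.7 CPM in SS mice (−0.36 ± 0.12), with C mice at 52.3, 60.8 and 48.9 CPM. SS mouse 18 was the SS mouse nearest to the SES mice, and all C mice were above all SES mice. Dhcr7, an enzyme of the final steps, stood at 18.7, 18.2 and 21.6 CPM against 24.5, 24.00 and 27.7 CPM (−0.38 ± 0.14). Without SS mouse 18, 4 members fell and 0 rose, among them Sqle (−0.47 ± 0.10, adjusted p = 0.0158) and Lss, lanosterol synthase (−0.43 ± 0.12, adjusted p = 0.0464). The median was −0.255 in that fit and −0.052 against SS mouse 18 alone.

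Astrocyte markers had 4 of 20 members above every SS mouse and 0 below, with a median of 0.104. Gjb6, connexin 30, stood at 131, 104 and 107 CPM in SES and 96.9, 73.2 and 66.1 CPM in SS mice (0.54 ± 0.14). Slc1a2, the main glutamate transporter, stood at 4625, 3701 and 4957 CPM against 3676, 3596 and 3422 CPM (0.31 ± 0.12). Sox9 (0.31 ± 0.11) and Aldh1l1 (0.30 ± 0.12) were the others, and glutamine synthetase, Glul, stood at 3430, 3100 and 3355 CPM against 3122, 2425 and 2298 CPM (0.33 ± 0.12). In the fit without SS mouse 18, 4 members rose, Gjb6 (0.71 ± 0.13, adjusted p = 0.00428) and Glul (0.48 ± 0.10, adjusted p = 0.0133) among them. The list median was 0.216 in that fit and −0.011 against SS mouse 18 alone. Summed over the list, SES mice had 14130 to 15933 CPM, SS mice 12581 to 14461 CPM and C mice 12605 to 13470 CPM. Microglia markers had a median of 0.071, with 1 of 16 above and 0 below. Among chaperones, Hspb8 stood at 35.2, 31.1 and 29.5 CPM against 26.5, 21.02 and 19.5 CPM and rose by 0.66 ± 0.16 without SS mouse 18 (adjusted p = 0.0215). Of the interferon response genes the RNA sensor Ifih1 stood at 4.53, 4.75 and 4.07 CPM against 3.13, 2.35 and 2.63 CPM and rose by 0.84 ± 0.22 (adjusted p = 0.0357), 1 of 2 members to rise among 21.

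Most ribosomal protein genes had a small positive fold change. Of 78 tested, 22 were above every SS mouse and 0 below, 74 had a positive fold change, the median was 0.152 and none was called. Without SS mouse 18, 4 rose and 0 fell, beside 3.26% and 5.43% of all genes in that fit. In 17 of the 78 (21.8%, against 8.46% of all genes tested), SS mouse 18 was above all SES mice and SS mice 19 and 21 were below them. Rps24 stood at 653, 579.9 and 595 CPM in SES and 530.3, 450.4 and 519 CPM in SS mice (0.29 ± 0.11), and Rpl10 at 404, 400.1 and 382 CPM against 361, 312 and 324 CPM (0.25 ± 0.09). Near-identical copies of these genes make the division of their reads uncertain. Summed over the list, SES mice had 28818 to 30844 CPM, SS mouse 18 had 29123 CPM and the lowest SS mouse 23927 CPM, while C mice had 30971 to 37717 CPM. Against SS mouse 18 alone the median was 0.027. Nuclear-encoded respiratory chain genes had a median of 0.052, with 6 of 75 above and 0 below, a share near the background of 6.33%. Cox7b, a cytochrome c oxidase subunit, stood at 204, 193 and 189 CPM against 189, 149 and 174 CPM (0.20 ± 0.10).

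In other lists the SS mice were split, with the SES mice between them. This was so for nuclear-retained RNAs, long noncoding transcripts that stay in the nucleus. Malat1 stood at 1068, 1381 and 1974 CPM in SES and 505, 3761 and 5257 CPM in SS mice, Meg3 at 760.2, 1159 and 689 CPM against 239, 3658 and 3712 CPM, and Miat at 145, 181 and 154 CPM against 42.4, 659 and 609 CPM. In 8 of the 10 list members (80.0%) SS mouse 18 was below all SES mice and SS mice 19 and 21 were above them, an order found in 1468 of all genes (10.1%). Snhg14, the exception above every SS mouse, stood at 19.6, 18.7 and 23.7 CPM against 15.8, 17.3 and 17.6 CPM. Without SS mouse 18, 6 of the 10 fell, among them Meg3 (−2.08 ± 0.21, adjusted p = 0.00015) and Malat1 (−1.61 ± 0.27, adjusted p = 0.0032). Against SS mouse 18 alone the list median was 1.201.

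Collagens and laminins, proteins of the extracellular matrix and basement membranes, were ordered in the same way in 9 of 22 members (40.9%). Col4a2, of basement membranes, stood at 22.4, 31.2 and 22.7 CPM in SES and 16.5, 69.6 and 74.97 CPM in SS mice, with C mice at 18.98, 16.1 and 16.6 CPM. Col4a1 (21.2, 27.6 and 24.2 against 11.5, 62.3 and 65.6 CPM), Col6a2 (5.48, 5.49 and 7.38 against 3.44, 23.9 and 21.4 CPM) and Col5a1 (3.84, 11.5 and 6.63 against 2.53, 26.2 and 36.00 CPM) had the same order. When SS mouse 18 was left out, 9 members fell, among them Col4a2 (−1.51 ± 0.13, adjusted p = 6.51e-05), and with all mice 0 of the 22 had groups that did not overlap. Endothelial and mural markers, the cells that make much of this matrix, summed to 296, 271 and 206 CPM in SES mice. They summed to 225, 301 and 312 CPM in SS mice 18, 19 and 21. The order of the collagens was found in 5 of 18 of these markers (27.8%, against 10.1% of all genes). Their median was −0.281 without SS mouse 18 and 0.233 against that mouse alone. The part of these cells and that of the nuclear RNA level in the collagen values was not tested.

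The opposite order, with SS mouse 18 above all SES mice and SS mice 19 and 21 below, occurred in 1230 genes (8.46%). It was found in 16 of 20 choroid plexus and ependymal markers (80.0%), 9 of 18 myelin genes (50.0%) and 6 of 11 thalamic markers (54.5%), tissues that border the hippocampus or run through it. Ttr, transthyretin of the choroid plexus, stood at 822, 4700 and 2469 CPM in SES and 5095, 5.72 and 12.1 CPM in SS mice. The myelin genes summed to 5422.5 to 9160.2 CPM in SES, 13129 CPM in SS mouse 18 and as little as 3891 CPM in the other SS mice. The myelin median was −0.08 with all mice, 0.555 without SS mouse 18 and −0.837 against that mouse alone. Opalin, a myelin membrane protein, did not follow this order, at 8.18, 9.44 and 6.48 CPM in SES, 18.7, 14.98 and 11.3 CPM in SS and 30.5, 24.3 and 35.6 CPM in C mice (−0.89 ± 0.26).

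**Figure D3:**
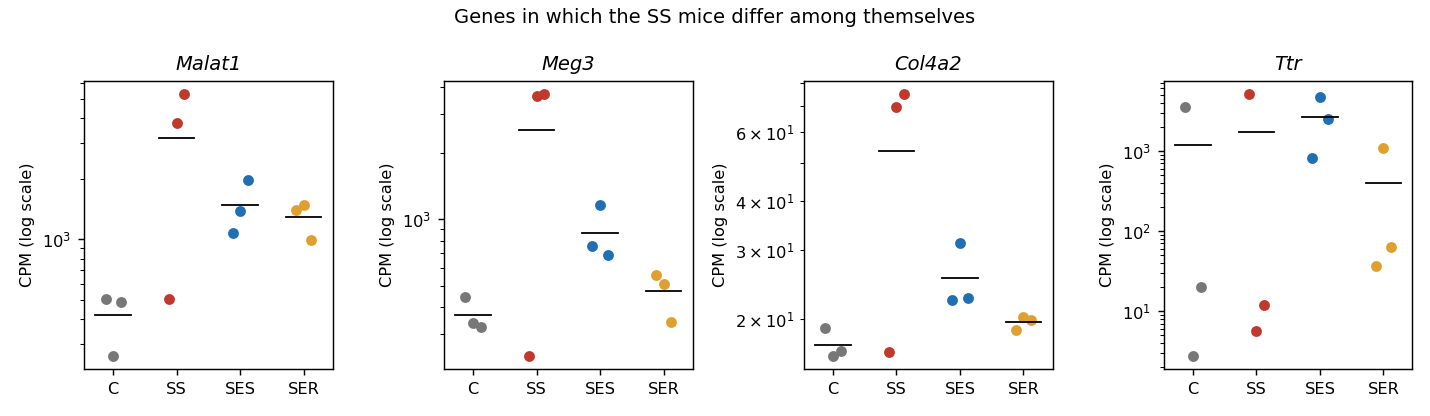
CPM (vertical axes, log scale) of 4 genes in each mouse of the 4 groups, with each mouse as a point and the group mean as a line. SS mouse 18 is the low SS point for Malat1, Meg3 and Col4a2 and the high SS point for Ttr, and the SES mice lie between the SS points.

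Some of the largest calls of the fit without SS mouse 18 followed the same split. Rreb1, a zinc finger factor, stood at 33.9, 44.8 and 40.1 CPM in SES and 17.2, 133 and 145 CPM in SS mice (−1.81 ± 0.15, adjusted p = 6.51e-05). The adhesion receptor Celsr3 (41.9, 49.1 and 42.8 against 25.8, 128 and 149 CPM) and the splicing protein Srrm2 (272, 272 and 257 against 186, 602 and 574 CPM) had that order too, with SS mouse 18 below the SES mice. Aldh1a1, a retinaldehyde dehydrogenase, stood at 86.04, 83.3 and 98.3 CPM against 98.7, 40.8 and 42.6 CPM and rose by 1.10 ± 0.15 without SS mouse 18 (adjusted p = 0.000782). For these 4 genes the direction turned with the SS mouse used. Calls in which all 3 SS mice lay on one side of the SES mice included Ptgds, prostaglandin D2 synthase (806, 619 and 805 against 560.1, 360.0 and 329 CPM, 1.11 ± 0.18, adjusted p = 0.00289), and Vim, vimentin (61.8, 78.7 and 69.3 against 57.6, 35.9 and 38.4 CPM, 0.91 ± 0.14, adjusted p = 0.00169). Both are expressed in meninges, vessels or choroid plexus as well as in glia, and choroid plexus markers were low in SS mice 19 and 21, whose part in these values was not tested.

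The other list medians without SS mouse 18 were as follows. The fit gave 0.182 for corticosteroid and CRH receptors, 0.036 for neurotrophins and receptors, 0.205 for exercise-linked factors, 0.121 for GABA-A receptor subunits and 0.099 for postsynaptic density genes. It gave 0.076 for the 10 serotonin receptors tested with all mice (0.162 over the 11 that passed the filter on low counts without SS mouse 18), −0.007 for potassium channels, −0.176 for sodium, calcium and HCN channels, −0.275 for ionotropic glutamate receptors and −0.022 for interneuron markers. CA2 and CA3 markers were at 0.144, dentate granule cell markers at −0.217 and microglia markers at 0.113 in that fit. Ribosomal protein genes were at 0.229, respiratory chain genes at 0.131, collagens and laminins at −0.341, thalamic markers at 0.464 and choroid plexus markers at 4.022. Several genes that were above or below every SS mouse kept a like fold change there and were not called, among them Sult1a1 (0.79 ± 0.24), Egr1 (0.49 ± 0.22), Homer1 (0.44 ± 0.13), Spred1 (0.48 ± 0.16), Dlgap1 (0.28 ± 0.09), Kcnk2 (0.29 ± 0.10), Dhcr7 (−0.40 ± 0.15), Sox9 (0.34 ± 0.12), Slc1a2 (0.34 ± 0.13) and Opalin (−0.71 ± 0.26). The adjusted p nearest to the threshold among these was that of Homer1, at 0.0516.

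**Figure D4:**
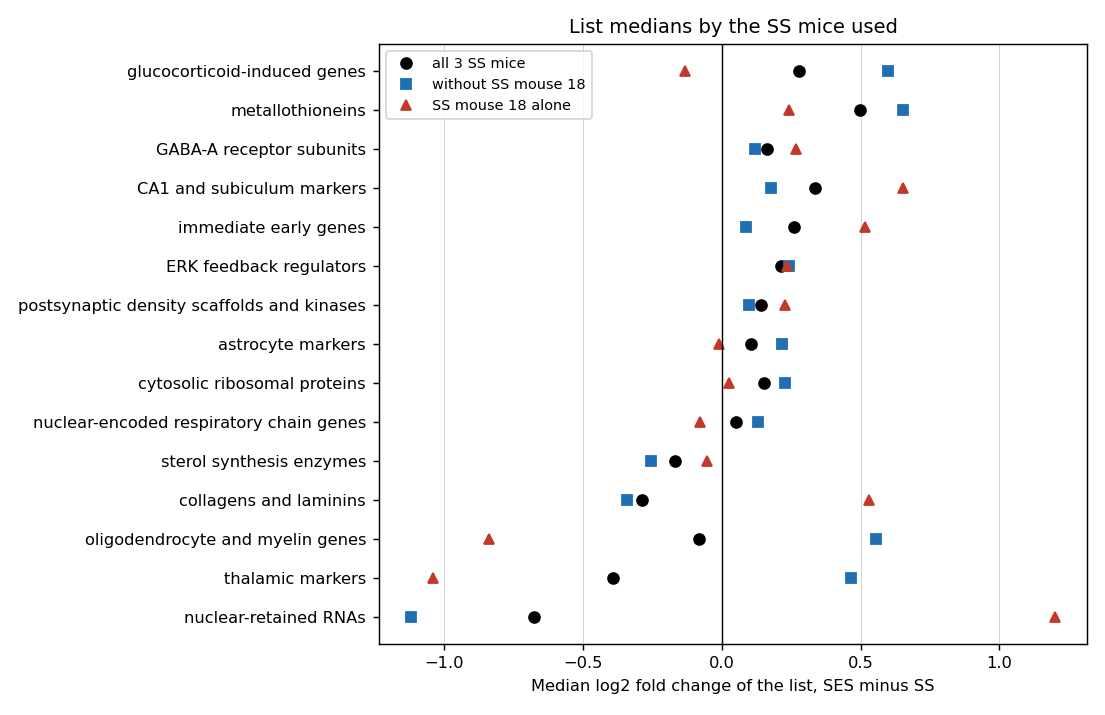
Median log2 fold change, SES minus SS (horizontal axis), of 15 lists with all 3 SS mice (black circles), without SS mouse 18 (blue squares) and against SS mouse 18 alone (red triangles). The ERK, GABA-A, CA1 and metallothionein medians are among those above 0 in all 3, the sterol median is below 0 in all 3, and those of glucocorticoid-induced genes, astrocyte markers, respiratory chain genes, collagens, myelin genes, thalamic markers and nuclear-retained RNAs change sign.

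Whether these values belong to effective responders was asked by testing SES directly against the ineffective responders, who had run as well. Of 14541 genes 4 were called (0.0275%), all 4 listed at 0 in every SER mouse. Pou3f1 stood at 117, 105 and 114 CPM in SER mice 6, 19 and 20, a log2 fold change of SES over SER of −0.15 ± 0.12. Fam107a stood at 1291, 1313 and 1257 CPM (−0.19 ± 0.12), Mt2 at 473, 491 and 401 CPM (0.03 ± 0.18) and Bdnf at 52.5, 50.4 and 50.6 CPM (0.05 ± 0.10). Kcnab1 (−0.02 ± 0.09), Homer1 (0.02 ± 0.12) and Shc2 (0.02 ± 0.11) were within 1 SE of 0. Sqle stood at 43.1, 43.2 and 44.4 CPM in SER (−0.22 ± 0.12), and all SES mice were below all SER mice. Sox9 (99.5, 94.8 and 98.8 CPM, −0.48 ± 0.11) and Slc1a2 (5829, 5070 and 6312 CPM, −0.37 ± 0.12) were higher in every SER than in every SES mouse, and Sesn1 was lower (66.1, 52.8 and 61.6 CPM, 0.37 ± 0.10). Each of the genes named in this paragraph had an adjusted p of 0.9997 in SES against SER, which does not show that the 2 running groups were alike.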

How the data were processed

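RNA from the ventral hippocampus of 12 mice, 3 per group, was sequenced from strand-keeping NEBNext Ultra II Directional libraries of Trizol RNA, per the labels' protocols. The authors deposited 1 table per mouse of whole-number estimated counts (expected counts, not normalized) for 33299 RefSeq transcripts under 23183 gene symbols. TopHat and mm10 were used, per the submitters' processing notes, while no source used here names the program that counted reads, how it treated strand or which annotation it used. Reads that fall on near-identical copies, overlapping genes or antisense genes are therefore uncertain. All values were already whole, no entry was unnamed, and 0 columns of values were left unused.

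Counts were summed per symbol, filtered with filterByExpr (minimum count 10) and scaled with TMM factors of 0.97 to 1.039. Differences were tested two-sided with edgeR 4.0.16 (quasi-likelihood, R 4.3.3) on the 12 libraries together (8 residual degrees of freedom), with Benjamini-Hochberg adjustment over all genes tested and calls at an adjusted p under 0.05. The biological coefficient of variation between mice was 15.7%. Adjusted p-values of genes come from edgeR where no other tool is named, and ± beside a log2 fold change is its standard error. In the fit without SS mouse 18 the same steps were run on the other 11 libraries. The labels number the mice but do not say how libraries were made from them, so p-values measure the spread between these samples. The procedure was tested on simulated data.

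The members and gene lists were chosen with earlier results of these data known. Genes were named by rule. The rule took, by smallest p, 15 higher and 15 lower genes whose SES and SS values did not overlap, up to 6 members of each list by p, a short list of stress, activity and growth factor genes, and 15 in each direction, by p, from the calls made without SS mouse 18. It omitted predicted genes, microRNAs and small nucleolar RNAs, and a selection is reported, with some members of the lists not reported here by name. Coordinates and promoter sequences are RefSeq's for GRCm38.p6 (117 of 118 genes had coordinates, and promoters of 4 genes were read). Alternatives were other scaling and filters, DESeq2 1.42.0, limma-voom (limma 3.58.1), deposited transcripts, fewer libraries and 2 covariates. Figures were drawn with matplotlib 3.10.9.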

Additional observations from a re-analysis of the deposited data

Results flagged for a closer look

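In the test of SES against SER, 4 genes were called, and all 4 were listed at 0 in the 3 SER mice while every SES, SS and C mouse had counts. For Lars2 these ran from 56579 to 274209 counts. Whether a 0 in the SER mice is a measured absence or an entry that was not counted there cannot be told from these data. Folds are against 3 counts in the smallest SER library (0.327 CPM) and are lower bounds only if the 0 values were measured. Lars2, which charges leucine tRNA in mitochondria (chromosome 9, 123366927 to 123462675), stood at 9934 ± 5110 CPM in SES (SD, n = 3), at least 30400-fold higher (edgeR adjusted p = 3.98e-05). Zc3h7a, a zinc finger gene (chromosome 16, 11136594 to 11176393), stood at 27.2 ± 2.92 CPM, at least 83.2-fold higher (edgeR adjusted p = 6.9e-06). Cmss1 (chromosome 16, 57301999 to 57606867), a ribosomal small subunit homolog, stood at 8.15 ± 1.58 CPM, at least 24.9-fold higher (edgeR adjusted p = 6.9e-06). Filip1l (chromosome 16, 57353277 to 57572804), which lies within the bounds of Cmss1, stood at 3.24 ± 0.741 CPM, at least 9.91-fold higher (edgeR adjusted p = 0.000502). In SES against SS none of these genes was called, with log2 fold changes of −0.51 ± 0.53 for Lars2, −0.45 ± 0.22 for Zc3h7a, 0.10 ± 0.21 for Cmss1 and 0.27 ± 0.31 for Filip1l.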

How the results depend on the processing

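No paired analysis was possible because the SES mice (9, 10 and 12) and the SS mice (18, 19 and 21) share no number. The count of genes called in SES against SS was 0 with RLE and upper-quartile factors, without a filter, with the stricter filter, with limma-voom, with only the 6 libraries, on deposited transcripts, against SS mouse 18 alone (assumed to vary like the other groups) and with the Malat1 level as a covariate. It was 17 with DESeq2 and 2 with choroid plexus level as covariate, Tcf7l2 (−1.40 ± 0.20, adjusted p = 0.0328) and Tnnt1 (−2.76 ± 0.36, adjusted p = 0.027). Both are members of the thalamic list, and only SS mouse 18 was above the SES mice. Tcf7l2 had 146, 152 and 127 counts in SES and 377, 110 and 102 in SS mice 18, 19 and 21. Tnnt1 had 16, 19 and 19 counts in SES and 203, 7 and 9 in these SS mice. Leaving out single libraries gave 0 to 1283, the highest without SS mouse 18, and 1 without SS mouse 19 (Rmrp, −2.41 ± 0.30, adjusted p = 0.0378), and 0 without any other. The count in SES against SER was 4 with RLE factors, the stricter filter and each library left out, 6 with DESeq2 and 3 with limma-voom.

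Of 114 named genes, 64 passed the threshold without SS mouse 18 and 15 with DESeq2. Against SS mouse 18 alone, 20 changed sign, and their log2 fold changes were −0.0385 for Mt3, −0.17 for Fkbp5, 0.17 for Crhr1, −0.36 for Ucp2, −0.33 for Fndc5, 0.83 for Col6a2, 0.63 for Col4a2, 1.54 for Col5a1, 1.09 for Col4a1, 1.55 for Malat1, 1.87 for Meg3, 1.93 for Miat, −0.93 for Ttr, −0.14 for Aldh1a1, 1.21 for Rreb1, 0.80 for Celsr3, 0.53 for Srrm2, 0.15 for Per1, 0.12 for Grik2 and 0.62 for Dcx. With the choroid plexus covariate Crhr1 was at 0.0273, Fndc5 at −0.13 and Dcx at 0.0279, and with its own level as the covariate Malat1 was at 0.0001, as that fit is built to give. Nr3c2 was at 0.0116 with limma-voom, at 0.0105 without a filter and at 0.0023 with the stricter filter. Over single libraries left out, Nr3c2 ran from −0.15 to 0.15, Mt3 from −0.0054 to 0.10, Crhr1 from −0.37 to 0.0215, Fos from −0.0296 to 0.79, Arc from −0.0904 to 0.38, Fndc5 from −0.0589 to 0.31 and Ttr from −0.0511 to 8.23. The cause of these changes was not tested. In the fit on transcripts a gene has a value per transcript, and these are given for Bdnf and Homer1 alone. Foxc2 gave no value with only the 6 libraries. Of 44 list medians, 18 changed sign against SS mouse 18 alone, 8 without it and 4 to 6 without any other single SES or SS library. Depth limits genes with few counts, such as Foxc2, at 0.0849 CPM in SS mouse 21.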
